A study of Mus musculus with 8 samples.

Results

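The nuclear factor I (NFI) family comprises the genes Nfia, Nfib, Nfic and Nfix, and all 4 were found by symbol among the 53465 gene identifiers of the count table of bone mesenchymal stem cells (MSCs, stromal cells that can form bone, fat and cartilage). The family was chosen with the difference between oxygen levels already in view, so the values of its members below are a description and carry no test. The question of the study is how long exposure to atmospheric oxygen alters the transcriptome of MSCs. According to the labels, the cells came from bone marrow of mice aged 3 to 5 months and were grown in α-MEM medium at 37 °C and 5% CO2, either at 2% oxygen (hypoxia, 4 samples) or at 21% oxygen (normoxia, 4 samples), with purification by flow cytometry on day 12. The methods of the study add that the mice were wild-type C57BL/6N males and that cells were sorted as CD45-, TER-119-, CD140a+ and Sca-1+. By the same methods, cells and bone fragments were first cultured in hypoxia. The sorted cells were divided afterwards between the oxygen levels, so both groups share the period at low oxygen. After this division, the study kept each group at its oxygen level for a week.

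NFI proteins are transcription factors that share a DNA-binding and dimerization domain at their amino end and differ more in the rest of the protein. As dimers they bind a palindrome made of TTGGC, 5 bases of any kind and GCCAA, and they can also bind its separate arms more weakly. Nfic is known for its part in tooth root formation and osteoblast differentiation, Nfix for fetal muscle and brain development, Nfia for the onset of glial differentiation and for brown fat, and Nfib for lung and brain maturation.

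Total counts ranged from 12898291 to 25132141 per sample, the highest being hypoxia replicate 1, and 3 counts correspond to between 0.119 and 0.233 CPM, the TMM-scaled share of a sample's counts. The sorting markers were present, and the 8 MSC markers summed to between 2109 and 3078 CPM in hypoxia and between 1864 and 2593 in normoxia. Cxcl12 alone averaged 1477 and 1197 CPM, and the 8 differed in direction. Nt5e, Lepr, Pdgfra and Vcam1 had log2 differences, normoxia minus hypoxia, of 0.59, 0.55, 0.24 and 0.022 (SE 0.12, 0.41, 0.098 and 0.11). Thy1, Cxcl12, Eng and Ly6a had -0.41, -0.30, -0.27 and -0.14 (SE 0.19, 0.24, 0.096 and 0.093). The 5 macrophage markers were all detected as well, with sums of 501 to 1030.1 CPM in hypoxia and 596 to 1125 in normoxia. These sums join markers that differed in direction. Lyz2, the most abundant of the 5 (means 354 and 523 CPM), had a log2 difference, normoxia minus hypoxia, of 0.56 (SE 0.17). Mrc1, Csf1r, Cd68 and Adgre1 had -0.84, -0.59, -0.28 and -0.11 (SE 0.29, 0.26, 0.25 and 0.25). The groups overlapped for each of the 5. Ptprc, the CD45 gene excluded at sorting, reached 8.27 to 16.9 CPM in hypoxia and 10.1 to 19.0 CPM in normoxia. The 5 markers of pericytes and smooth muscle summed to 3135 to 4239 CPM in hypoxia and 2394 to 2807 in normoxia, without overlap. Most of this sum was Acta2, which alone averaged 3325 CPM and 2357 CPM. Acta2, Myh11, Cspg4 and Notch3 had log2 differences of -0.49, -1.03, -0.24 and -0.23 (SE 0.10, 0.25, 0.14 and 0.17). Rgs5 went the other way, with 0.71 (SE 0.26). The groups overlapped for Rgs5, Cspg4 and Notch3. Markers of endothelium summed to at most 2.65 CPM, of Schwann cells and glia to 9.91, of skeletal muscle to 1.38 and of red cells to 0.072, and Emcn, Myf5, Pax7, Myog, Hba-a1 and Hbb-bs had no count in any sample. The part of other cell types in the values of the NFI genes was not tested. In bulk RNA, fewer cells of a type and less RNA per cell cannot be told apart.

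The genes differ in size and base composition. In the GENCODE M21 annotation of GRCm38, Nfia (ENSMUSG00000028565) spans 346.1 kb on chromosome 4 (97772734 to 98118874, plus strand), and Nfib (ENSMUSG00000008575) spans 415.6 kb on the same chromosome (82290173 to 82705750, minus strand). Nfic (ENSMUSG00000055053) covers 59.45 kb on chromosome 10 (81396186 to 81455635, minus strand) and Nfix (ENSMUSG00000001911) covers 100.5 kb on chromosome 8 (84699876 to 84800344, minus strand). The longest transcripts of Nfia and Nfib have 9526 and 9116 bases with 42.7% and 43.3% GC, whereas those of Nfic and Nfix have 6237 and 5476 bases with 57.4% and 57.1% GC. Among the tested genes, 15.2% and 17.8% have a lower GC content than Nfia and Nfib, and 88.9% and 87.5% have a lower one than Nfic and Nfix. Their coding parts are of similar length, from 1383 bases in Nfic to 1710 in Nfib, so most of each long transcript is not coding.

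RefSeq (GRCm38.p6) gave 6 windows, from 250 bases before a start to 50 after it, for 3 of the 4 members, namely Nfia, Nfic and Nfix. These counts do not show which start is used, and the Nfia window lies upstream of the gene as GENCODE draws it. The 250 bases before the start are shown for Nfia (chr4:97581693-97581942, plus strand), for Nfic (chr10:81427174-81427423, minus strand) and for the third Nfix start (chr8:84773411-84773660, minus strand) to set the windows side by side, and capitals mark the letters GCGTG, which match a core that hypoxia-inducible factors can bind.

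Nfia: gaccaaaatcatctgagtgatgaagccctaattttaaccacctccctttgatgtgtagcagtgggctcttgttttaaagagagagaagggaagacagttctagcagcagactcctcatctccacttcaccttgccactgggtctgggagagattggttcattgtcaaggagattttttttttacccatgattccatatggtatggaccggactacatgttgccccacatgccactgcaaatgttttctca
Nfic: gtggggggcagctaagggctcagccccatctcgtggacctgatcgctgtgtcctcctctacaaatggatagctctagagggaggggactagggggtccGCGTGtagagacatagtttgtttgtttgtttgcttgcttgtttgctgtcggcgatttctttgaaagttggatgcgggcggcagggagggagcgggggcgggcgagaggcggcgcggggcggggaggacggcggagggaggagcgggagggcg
Nfix: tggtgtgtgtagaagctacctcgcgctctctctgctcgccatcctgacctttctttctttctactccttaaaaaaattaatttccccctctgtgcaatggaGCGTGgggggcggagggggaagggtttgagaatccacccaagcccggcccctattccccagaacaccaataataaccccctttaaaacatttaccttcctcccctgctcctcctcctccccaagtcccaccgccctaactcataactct

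The Nfic window held 63.0% GC with 24 CpG dinucleotides and 4 matches to the GC box GGGCGG, and the Nfia window held 44.7% GC with 2 CpG and no GC box. The 4 Nfix windows had 44.3% to 57.3% GC, against a median of 52.7% over all 32851 windows. Searched on both strands, ACGTG was in no member window and in 19.6% of all windows. GCGTG was in the Nfic window and in 1 of the 4 Nfix windows, and in 32.4% of all windows. The full palindrome was in no member window and in 0.0365% of all windows. Its arm TTGGC, found in 46.7% of all windows, was in 3 of the 4 Nfix windows and in no Nfia or Nfic window. At the fourth Nfix start (chr8:84772860-84772889, minus strand) a pair of arms stood 3 bases apart in the order opposite to that of the palindrome, shown here in capitals:

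Nfix: ctgggggcaGCCAAacaTTGGCcagtccgg

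These matches are letters in fixed windows and say nothing about binding.

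Transcripts of all 4 NFI genes were less abundant in normoxia. Nfix, Nfic and Nfia stood at 57.8%, 63.0% and 64.4% of their hypoxic CPM, and the groups did not overlap, whereas Nfib stood at 84.9% and the groups overlapped. Nfix was the most abundant in every sample.

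Nfix had 716, 838, 842 and 830.3 CPM in hypoxia replicates 1 to 4 and 436, 496, 444 and 490.5 CPM in normoxia replicates 1 to 4. Every normoxia sample lay below every hypoxia sample, and hypoxia replicate 1 was the lowest of its group. The means were 806 ± 60.5 and 466 ± 30.9 CPM (SD, n = 4 each), a 1.73-fold higher level in hypoxia. On the log2 CPM scale the difference, normoxia minus hypoxia, was -0.79 with a standard error of 0.072. Without hypoxia replicate 1 it was -0.84.

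For Nfic the hypoxia samples had 287, 286, 309.9 and 279 CPM and the normoxia samples had 179.9, 181, 183 and 189 CPM, in the order of the replicates. The normoxia values lay close together, and every one was below every hypoxia value. The means were 291 ± 13.3 and 183 ± 3.93 CPM (SD, n = 4 each), and the log2 difference was -0.67 with a standard error of 0.053.

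Nfia, the least abundant member, had 32.2, 40.8, 35.5 and 36.1 CPM in hypoxia and 20.9, 24.5, 20.4 and 27.3 CPM in normoxia, from counts of between 282 and 770. The highest normoxia sample, replicate 4, remained under the lowest hypoxia sample, replicate 1. The means were 36.2 ± 3.56 and 23.3 ± 3.22 CPM (SD, n = 4 each), and the log2 difference was -0.64 with a standard error of 0.10.

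Nfib departed from the other members. It had 78.7, 92.6, 93.1 and 77.9 CPM in hypoxia and 64.5, 70.7, 74.1 and 81.2 CPM in normoxia, so normoxia replicate 4 was above hypoxia replicates 1 and 4. The means were 85.6 ± 8.39 and 72.6 ± 6.99 CPM (SD, n = 4 each), and the log2 difference was -0.24 with a standard error of 0.085, where the SD within each group was 0.14.

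**Figure D1:**
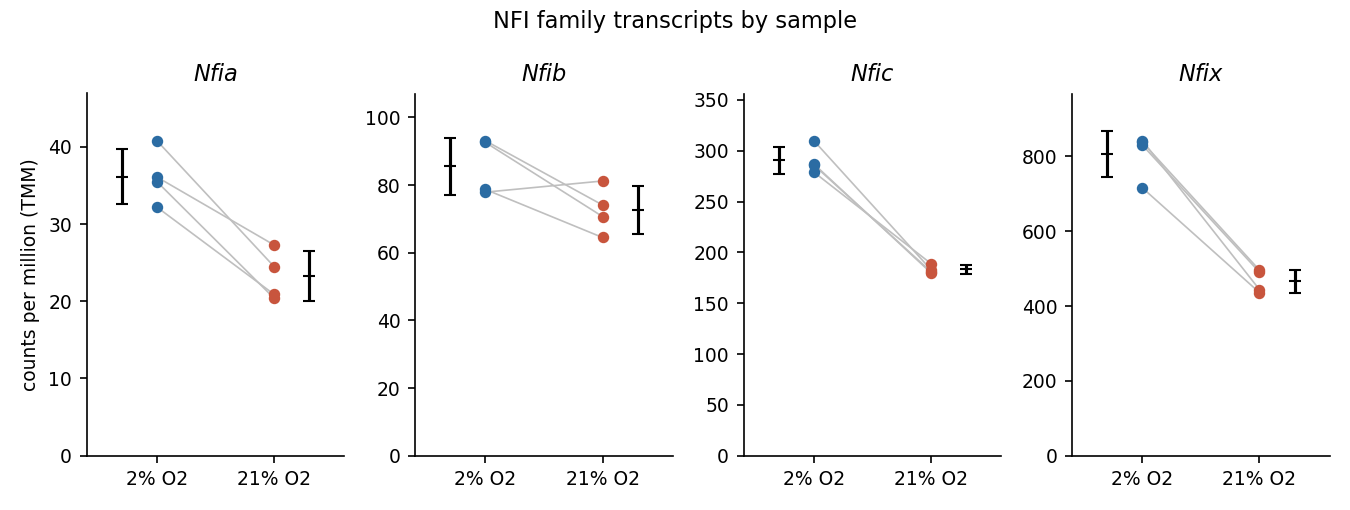
TMM-scaled CPM (vertical axis) of each NFI gene in the 4 samples at 2% oxygen (blue) and the 4 at 21% oxygen (red), with grey lines joining samples of the same number and black marks for mean ± SD. The groups are apart for Nfia, Nfic and Nfix, and overlap for Nfib, whose normoxia replicate 4 reaches 81.2 CPM.

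Samples with the same number were set against each other as pairs, although the sample titles do not state this pairing. All members share the same 4 pairs, so their differences are not independent of each other. Nfix had log2 differences of -0.71, -0.76, -0.92 and -0.76 in pairs 1 to 4, Nfic of -0.67, -0.66, -0.76 and -0.56, and Nfia of -0.62, -0.73, -0.79 and -0.40. Pair 3 was the strongest for these 3 genes. Nfib had -0.29, -0.39, -0.33 and 0.061, and pair 4, in which it was higher in normoxia, was also the weakest pair for Nfia and Nfic. Across the 8 samples the centred profiles of Nfic and Nfix were the closest of the 6 member pairs, with a root mean square distance of 0.11 log2 units. Nfia was at 0.12 from Nfix and 0.15 from Nfic, and Nfib was at 0.23 to 0.29 from the other 3.

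With limma-trend fitted to all 14369 tested genes and Benjamini-Hochberg adjustment, all 4 members were past an adjusted p of 0.05 in the lower direction, as were 16.5% of all tested genes (34.6% in either direction). The groups did not overlap, with normoxia lower, for 3 of the 4 members and for 15.5% of tested genes (32.6% in either direction). The members were chosen on this contrast, so nothing is read from either count. Nfib was the member just inside the threshold and was not past it in 9 of the 18 alternative fits, among them the edgeR quasi-likelihood test, limma-voom and the fits without hypoxia replicates 2 or 3 or normoxia replicates 1, 2 or 3, whereas the other 3 were past it in all 18. With the replicate block and the correction for GC content and length described next, all 4 were lower, as were 21.5% of tested genes (43.2% in either direction). Of the tested genes, 2.51% had a lower difference than Nfix, 4.23% than Nfic, 4.79% than Nfia and 24.8% than Nfib.

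The difference between oxygen levels depended on GC content across the transcriptome. For every 10 percentage points of GC, log2 CPM centred on each gene's own average had a slope of 0.074 to 0.18 among hypoxia replicates, and of -0.14 to -0.086 among normoxia replicates. Centring on the average makes the slopes balance over all samples, so their opposite signs show only that the groups differ from each other. Nfic and Nfix lie at the GC-rich side, Nfia and Nfib at the GC-poor side. A correction that removed the dependence on GC content and transcript length from each sample lowered the differences of Nfia and Nfib further and brought those of Nfic and Nfix nearer to 0. The log2 differences became -0.80 ± 0.094 (SE) for Nfia, -0.65 ± 0.065 for Nfix, -0.52 ± 0.049 for Nfic and -0.39 ± 0.075 for Nfib. All 4 were still lower in normoxia, and Nfia took the place of Nfix as the member with the greatest difference. The order of the 4 differences therefore depended on this correction.

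**Figure D2:**
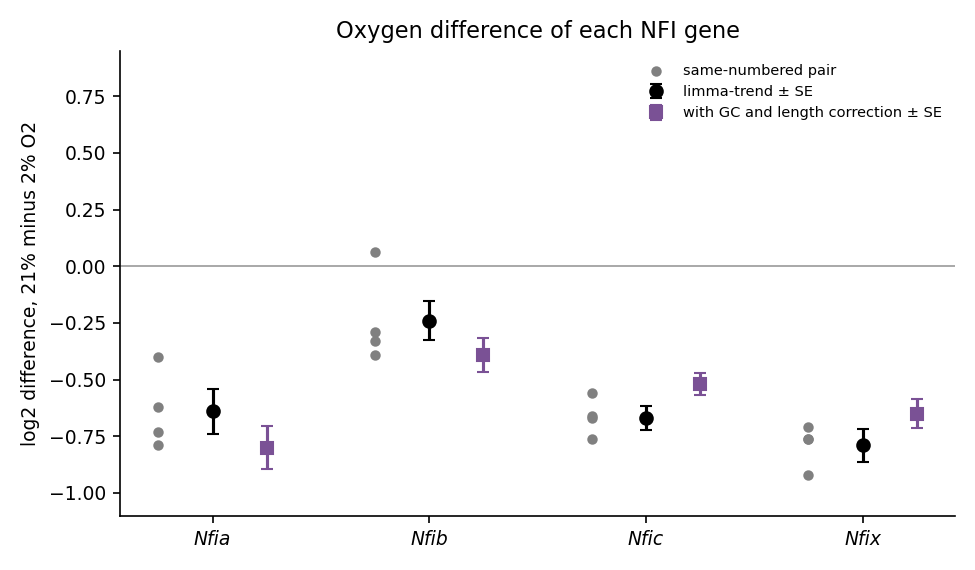
Log2 difference, normoxia minus hypoxia (vertical axis), for each NFI gene, shown for the 4 same-numbered pairs (grey), as the limma-trend estimate ± SE (black) and after the GC and length correction ± SE (purple). The correction deepens the differences of Nfia and Nfib and lessens those of Nfic and Nfix, and 1 Nfib pair lies above 0.

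**Figure D3:**
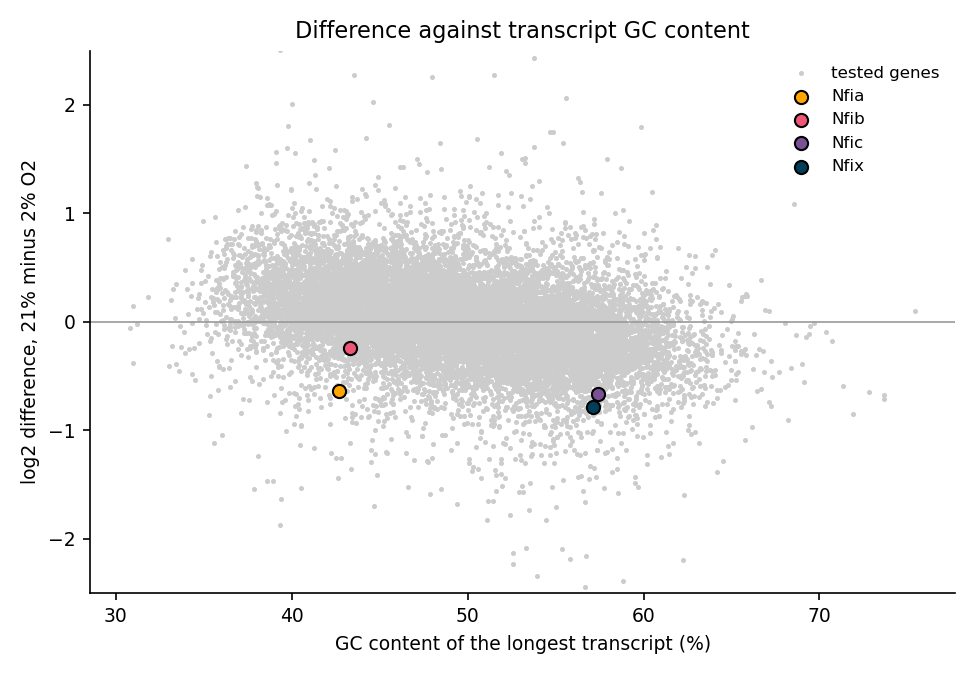
Log2 difference, normoxia minus hypoxia (vertical axis), against the GC content of the longest transcript in percent (horizontal axis) for tested genes (grey) and the 4 NFI genes (coloured), with 2 genes beyond 2.5 on the vertical axis left out. Nfia and Nfib lie at 42.7% and 43.3% GC, Nfic and Nfix lie at 57.4% and 57.1%, and all 4 lie below 0.

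Levels of different genes were compared as CPM per kb of exon, taking the union of all annotated exons. Nfix led with means of 109.7 ± 8.23 (hypoxia) and 63.5 ± 4.20 (normoxia), followed by Nfic with 43.8 ± 2.01 and 27.6 ± 0.593, Nfib with 5.72 ± 0.561 and 4.86 ± 0.468, and Nfia with 3.32 ± 0.327 and 2.14 ± 0.296 (CPM per kb, SD, n = 4 each). This order held in 8 of 8 samples, and it was the same with the longest transcript or the longest coding sequence as the length. Nfix and Nfic together thus made up most of the NFI mRNA, with mean shares of 67.4% and 27.0% of the per-kb sum in hypoxia and 64.7% and 28.2% in normoxia. The share of Nfib was 3.18% to 3.71% at low oxygen and 4.65% to 5.27% at high oxygen (means 3.52% ± 0.233 and 4.95% ± 0.346), and Nfia held 2.04% ± 0.144 and 2.17% ± 0.195 (SD, n = 4 each).

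The per-kb sum of the family averaged 163 ± 9.54 at low oxygen and 98.1 ± 5.10 at high oxygen (SD, n = 4 each), that is, 60.3% of the hypoxic sum. The ratio of Nfix to Nfic varied from 2.25 to 2.68 in hypoxia and from 2.19 to 2.47 in normoxia, and these ranges overlapped. By contrast, the ratio of Nfix to Nfib was 18.4 to 21.7 in hypoxia and 12.2 to 14.3 in normoxia, and that of Nfib to Nfia was 1.57 to 1.91 and 2.10 to 2.64. Without the GC and length correction, the proportion of Nfib within the family was thus higher in every normoxia sample than in any hypoxia sample. With it, the log2 differences of Nfib, Nfic and Nfix lay nearer together, at -0.39, -0.52 and -0.65 against -0.24, -0.67 and -0.79. That of Nfia moved from -0.64 to -0.80. The shares and ratios were not recomputed with the correction, so how far they depend on it was not tested.

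**Figure D4:**
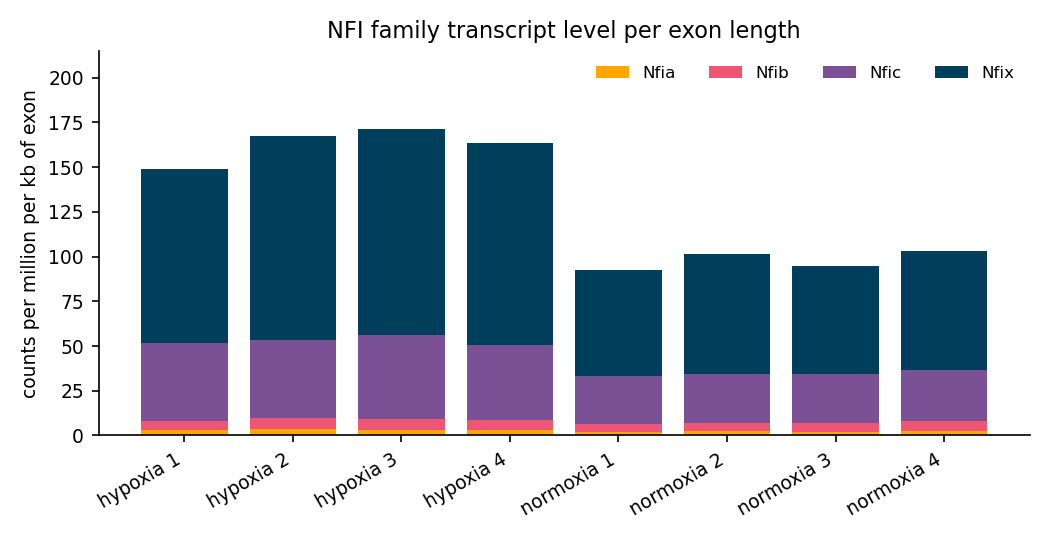
Stacked level of the 4 NFI genes in CPM per kb of exon (vertical axis) in each of the 8 samples (horizontal axis). Nfix and Nfic fill most of each bar, and the family sums lie between 149 and 171 in hypoxia and between 92.7 and 103 in normoxia.

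The genes around the members were examined next, since whether the counting used strand is not stated. Of 10 annotated genes that overlap a member, Lyl1, which encodes a blood transcription factor and overlaps Nfix on the opposite strand, was the only one that passed the filter. It had 8 to 17 counts per sample and a log2 difference of -0.38 (SE 0.32, limma-trend adjusted p = 0.39). None of the others exceeded 5 counts in any sample, so few reads were assigned to other genes within the NFI loci. Of the 8 nearest protein-coding genes, 7 were tested. Trmt1, which encodes a tRNA methyltransferase and whose 3′ end lies 0.068 kb from the 3′ end of Nfix, fell by 0.49 on the log2 scale (SE 0.075, limma-trend adjusted p = 5.6e-04). Reads running past the end of either gene cannot be told apart without strand. Zdhhc21, a palmitoyltransferase gene 93 kb upstream of Nfib, rose by 0.44 (SE 0.090, limma-trend adjusted p = 0.0029). Smim24, 0.794 kb beyond the 3′ end of Nfic, had 2 to 22 counts and fell by 1.21 (SE 0.36, limma-trend adjusted p = 0.022), a call lost in 5 of 18 alternative fits, among them those without hypoxia replicates 3 or 4 or normoxia replicates 1 or 2. The flanking genes of Nfia and Nfib further away gave log2 differences of -0.031 (Tm2d1) and -0.014 (Mpdz), and Celf5 beside Nfic and Dand5 beside Nfix gave 0.19 and 0.45, all without passing the threshold (limma-trend adjusted p from 0.18 to 0.89). Of the 8 tested genes in and around the loci, 1 was called higher and 2 lower, against 18.0% and 16.5% of all tested genes.

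Genes linked to NFI proteins in other tissues were taken from 4 lists of 38 genes in all, of which 25 were tested. These lists, and that of the partners below, were chosen with earlier results of these data known. Their counts, median and adjusted p values are therefore a description, and nothing is read from their distance to the shares of all tested genes. Without a replicate block, 4 were called higher and 6 lower, where 18.0% and 16.5% of all tested genes were called (34.6% in either direction). The other 15 were not past the threshold (limma-trend, adjusted over all tested genes). With the replicate block, 7 were higher and 9 lower, where 23.3% and 22.7% of all tested genes were called (46.0% in either direction). Their median log2 difference was -0.19, against 0.0049 over all tested genes.

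Of the bone and matrix genes of osteoblasts, in which Nfic is known to act, 10 of 11 were tested. Of these, 4 fell and 1 rose, where 16.5% of all tested genes were lower and 18.0% higher. Under the block 7 fell and 2 rose, where the shares of all tested genes were 22.7% and 23.3%. Sp7, the osterix gene that NFIC is known to regulate in osteoblasts, fell from 35.0 ± 5.14 to 19.8 ± 1.01 CPM (SD, n = 4 each), a log2 difference of -0.80 (SE 0.10, limma-trend adjusted p = 2.1e-04). Col1a1, the gene of the main collagen chain of bone, fell from 53046 ± 3846 to 31808 ± 1184 CPM (SD, n = 4 each; log2 difference -0.74, SE 0.16, limma-trend adjusted p = 0.0038), and this call was lost when no filter on low counts was applied (adjusted p = 0.10). Alpl, which encodes the alkaline phosphatase of mineralizing cells, fell by 0.48 (SE 0.12, limma-trend adjusted p = 0.0083), and Runx2, a master regulator of osteoblasts, fell by 0.35 (SE 0.067, limma-trend adjusted p = 0.0018). Cdkn1a, the cell-cycle inhibitor gene p21 that NFIC can repress, rose by 0.20 (SE 0.070, limma-trend adjusted p = 0.041), and this call was lost in 9 of 18 alternative fits, among them those without hypoxia replicates 1, 2 or 4 or normoxia replicates 1, 2 or 3. Ibsp, Col1a2 and Igfbp5 had log2 differences of -0.61, -0.34 and -0.14 and limma-trend adjusted p values of 0.13, 0.078 and 0.19, which became 6.5e-05, 0.0015 and 0.027 under the block. For Klf4 the difference was 0.17, and the limma-trend adjusted p went from 0.21 to 0.013. Single samples moved these values. Ibsp had a log2 difference of -0.79 without hypoxia replicate 1 (limma-trend adjusted p = 0.040) and of -0.29 without normoxia replicate 1 (limma-trend adjusted p = 0.29). Klf4 had 0.086 without hypoxia replicate 4 and 0.099 without normoxia replicate 1 (limma-trend adjusted p = 0.53 and 0.50), and Igfbp5 had -0.089 without hypoxia replicate 4 and -0.087 without normoxia replicate 2 (limma-trend adjusted p = 0.42 for both).

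Of the glial genes, 9 of 12 were tested, and 3 rose, 1 fell and 5 were not past the threshold, where 18.0% of all tested genes were higher and 16.5% lower. Under the block 5 were higher and 1 lower, where the shares of all tested genes were 23.3% and 22.7%. Apcdd1, a Wnt inhibitor gene that NFIA activates in glial precursors, rose from 6.04 ± 1.19 to 9.54 ± 1.49 CPM (SD, n = 4 each; log2 difference 0.65, SE 0.16, limma-trend adjusted p = 0.0091). Slc1a3, a glutamate transporter gene, rose by 0.62 (SE 0.093, limma-trend adjusted p = 4.9e-04), and Bbx, an HMG-box gene, rose by 0.40 (SE 0.094, limma-trend adjusted p = 0.0062). Aldh1l1, a folate enzyme gene used as a marker of astrocytes, fell by 0.97 (SE 0.14, limma-trend adjusted p = 3.5e-04). Hes1 and Ezh2, which NFI proteins repress in the developing brain, had log2 differences of 0.34 and 0.38 and limma-trend adjusted p values of 0.056 and 0.062, which became 0.011 and 0.0027 under the block. Without hypoxia replicate 1 these were 0.027 and 0.014 (limma-trend adjusted p), and without normoxia replicate 2 they were 0.045 and 0.034. Both stayed short of the threshold when any other single sample was left out. Under the block combined with the correction, Hes1 had 0.40 (limma-trend adjusted p = 0.0023) and Ezh2 had 0.23 and was no longer past it (limma-trend adjusted p = 0.051). Gfap, the intermediate filament gene of astrocytes, had 1 to 5 counts and Aqp4 at most 1.

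Most muscle genes and several fat genes did not pass the filter. Of 7 muscle genes 2 were tested and none was called, and Nfatc4, which NFIX represses in fetal muscle, had a log2 difference of -0.010 (limma-trend adjusted p = 0.92). Under the block combined with the correction it was 0.16 and past the threshold (adjusted p = 0.0071). Of 8 fat genes 4 were tested, and only Cebpa, an adipogenic transcription factor gene, was called. It fell from 60.4 ± 13.0 to 32.9 ± 6.82 CPM (SD, n = 4 each; log2 difference -0.87, SE 0.17, limma-trend adjusted p = 0.0022). Pparg, the central adipogenic receptor gene, had -0.16 (limma-trend adjusted p = 0.30), and Ucp1 had no count.

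Partners of NFI proteins and the TGF-beta path, which acts on collagen promoters beside NFI, formed the last list. Of 15 genes 13 were tested, and 5 fell and 0 rose, where 16.5% of all tested genes were lower and 18.0% higher. Under the block 5 were lower and 1 higher, where the shares of all tested genes were 22.7% and 23.3%. With the correction added to it 8 were lower and 1 higher, where 21.5% of tested genes were lower (43.2% in either direction). Sox9, which acts with NFIA in glia and directs cartilage formation, fell by 0.58 (SE 0.093, limma-trend adjusted p = 7.1e-04). Tgfb1, the ligand, fell by 0.46 (SE 0.13, limma-trend adjusted p = 0.013), and its groups overlapped. Pou2f1, the octamer-binding factor that joins NFI in adenovirus replication, fell by 0.43 (SE 0.12, limma-trend adjusted p = 0.015). Ski, a co-repressor that can bind NFI, fell by 0.39 (SE 0.055, limma-trend adjusted p = 3.3e-04), and Smad4, the shared mediator of TGF-beta signals, fell by 0.26 (SE 0.059, limma-trend adjusted p = 0.0047). The other 8 genes were not past the threshold, and the log2 differences of those described here ran from -0.12 for the TGF-beta receptor gene Tgfbr1 to 0.17 for the glucocorticoid receptor gene Nr3c1, whose limma-trend adjusted p went from 0.13 to 0.012 under the block and to 0.0085 without hypoxia replicate 2. NF-Y, which binds CCAAT boxes and was once confused with NFI, was described beside them. Its subunit genes Nfya, Nfyb and Nfyc had log2 differences of 0.15, 0.28 and -0.19, of which Nfyb was called higher (limma-trend adjusted p = 0.023), a call lost in 6 of 18 alternative fits, among them the GC and length correction (adjusted p = 0.47) and the fits without hypoxia replicate 3 or normoxia replicates 1, 2 or 4.

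**Figure D5:**
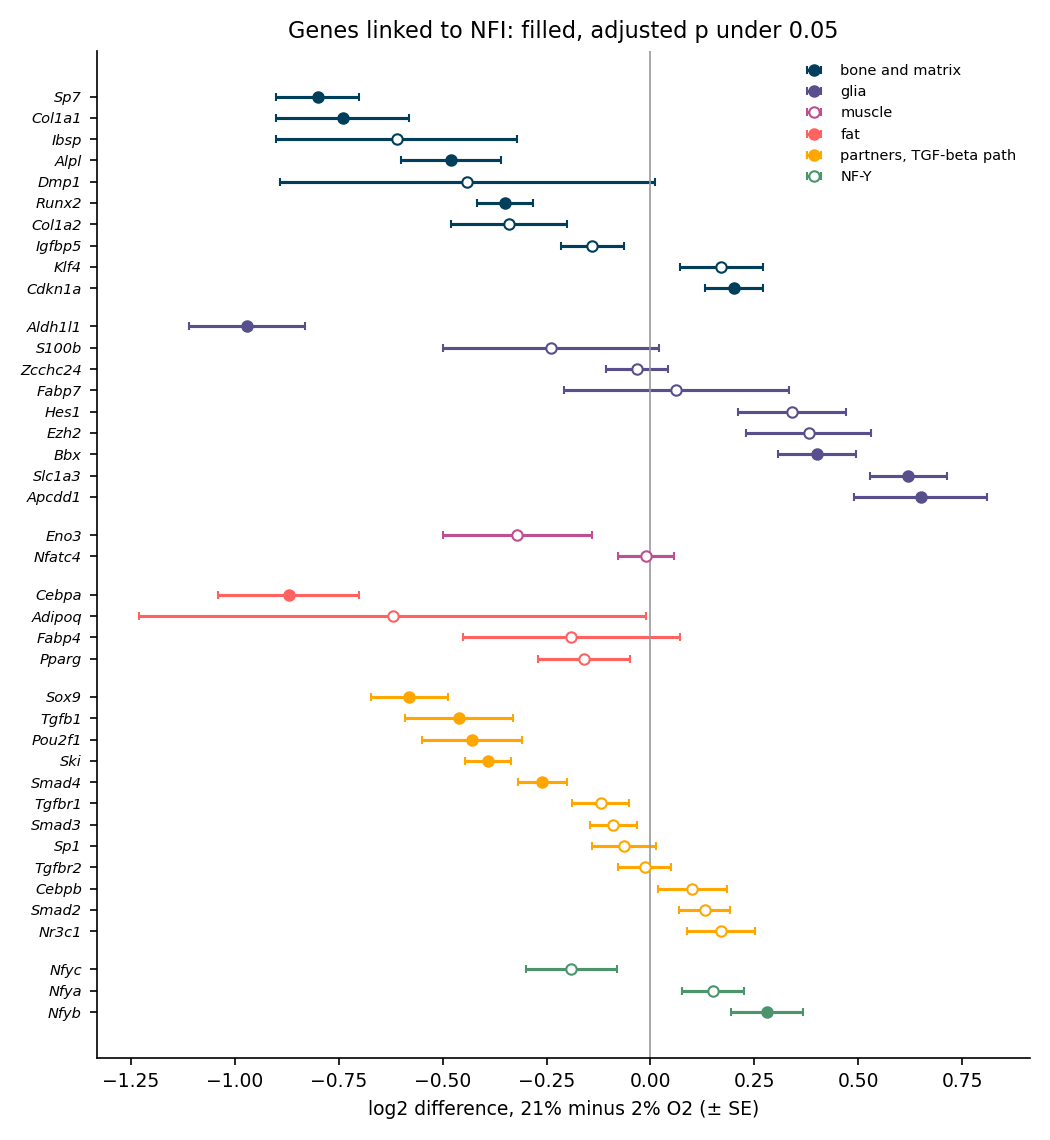
Log2 difference, normoxia minus hypoxia, with its SE (horizontal axis) for tested genes of the NFI-linked lists, the partners and NF-Y (vertical axis, coloured by list), where filled symbols have a limma-trend adjusted p under 0.05. Bone genes lie mostly to the left, with Sp7 at -0.80, glial genes lie on both sides, and the filled partner genes all lie to the left.

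Among 9391 genes with a mean log2 CPM of at least 3, those with the centred profile closest to each member over the 8 samples were named as a description. Trib3, Sox12 and Col1a1 were closest to Nfic, at root mean square distances of 0.028, 0.037 and 0.052 log2 units. Trib3 encodes a stress-induced pseudokinase and had a log2 difference of -0.68. Pigt, Hcfc1r1 and Jund were closest to Nfix (0.054, 0.056 and 0.058), Vars2, Vegfb and Faap20 to Nfia (0.081, 0.082 and 0.088), and Zfp592, Med12 and Nf1 to Nfib (0.045, 0.045 and 0.047). Nf1 encodes neurofibromin and is not a member of the NFI family. With the GC and length correction, 1 of these 12 genes remained among the closest.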

How the data were processed

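RNA-seq was available for 4 hypoxia and 4 normoxia samples. The authors mapped single-end reads to mm10 with zUMIs and STAR, counted them with featureCounts on Ensembl annotation and deposited raw counts per gene for 53465 identifiers, without normalization. Strand, intron and multi-mapping settings are not given in the sources used here.

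As in the study, low genes were removed with filterByExpr (edgeR 4.0.16, minimum count 5), leaving 14369 genes, including the 4 members. TMM-scaled log2 CPM values with a prior count of 3 were compared with limma-trend (limma 3.58.1, R 4.3.3), with Benjamini-Hochberg adjustment over all tested genes and a threshold of 0.05. Differences are normoxia minus hypoxia. DESeq2 1.42.0, the edgeR quasi-likelihood test and limma-voom were alternatives. The GC and length correction subtracted, sample by sample, splines of the longest transcript's GC content and length (natural, 5 degrees of freedom) (14353 genes) and also removes any true change that follows them. Symbols and positions are from GENCODE M21. The fits were tested on simulated data.

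The study divided 1 sorted population between the oxygen levels, and deviations of same-numbered samples from their group means correlated across genes at 0.47, 0.28, 0.25 and 0.17 for pairs 1 to 4, so the numbers were taken as pairs for the replicate block. The sample titles give running numbers only and do not state that equal numbers came from 1 population, so the pairing is inferred. The study calls the samples biologically independent.

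Members and gene lists were chosen with earlier results of these data known. Named genes are the members, genes of the lists that passed the filter, genes overlapping or adjacent to a member, and the 3 genes closest in profile to each member. The SD and SE values reflect differences between samples, whereas the floor of 3 counts covers counting error only. Values of 1 partner gene and 1 red cell marker are not reported here.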

Additional observations from a re-analysis of the deposited data

Results flagged for a closer look

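In 20 sets of 4 values each (the level and family share of each member, the family sum and the total count, in each group), a sample far from the other 3 was searched for by the gap to its nearest neighbour over the range of the group. Chance gives about 1 in 20, and 2 were found, both for hypoxia replicate 1. It held 25132141 counts, whereas hypoxia replicates 2 to 4 held 12929564 to 13219647 (ratio 0.976). Its Nfix level was 9.48 log2 CPM against 9.70 to 9.72 in the others (ratio 0.915).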

How the results depend on the processing

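The log2 differences of all 4 members were negative in each of the 18 alternative fits, and those of Nfia ranged from -0.80 to -0.58. With the GC and length correction, with or without the replicate block, Nfib moved to -0.39, Nfic to -0.52 and Nfix to -0.65. The parts of GC content and of length in these moves were not tested apart. Leaving out 1 sample gave -0.73 to -0.58 for Nfia, -0.30 to -0.19 for Nfib, -0.69 to -0.64 for Nfic and -0.84 to -0.77 for Nfix. All tested genes called numbered 4970 in the reported fit, 6610 with the replicate block and 3838 to 5423 when 1 sample was left out.

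NFI-linked genes called numbered 10, then 16 under the replicate block and 17 when the correction was added to it, and partner genes from 5 to 8 with the correction and 9 with both. Of all tested genes, 34.6% were called in the reported fit, 46.0% under the block and 43.2% with both. With the correction alone, 4238 tested genes were called. The cause of these moves was not tested. Leaving out 1 sample gave 9 to 13 NFI-linked genes, 5 to 6 partner genes and 2 to 3 neighbouring genes called. The block added calls for Col1a2, Igfbp5, Ibsp, Klf4, Hes1, Ezh2 and Nr3c1 and changed no other call among the members, these lists and the neighbouring genes, so bone and matrix genes called went from 5 to 9 and glial genes called higher from 3 to 5.

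Scaling by the longest transcript gave 3.12, 8.68, 38.0 and 116 CPM per kb for Nfia, Nfib, Nfic and Nfix, and by the longest coding length 19.5, 46.3, 171 and 429, against 2.73, 5.29, 35.7 and 86.6, since the divisor is shorter. Of the 12 genes closest in profile, 12 remained with RLE normalization and 1 with the correction.

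Single list genes were read under these fits after seeing the data. Cell type markers were left out of this count. Of 19 named genes of the NFI-linked, partner, NF-Y and neighbouring sets that were called, 15 kept their call and direction in every fit. Col1a1, Cdkn1a, Nfyb and Smim24 lost the call in some. With the correction, with or without the block, Nfatc4 turned to 0.16 and Nr3c1 to -0.030. Leaving out 1 sample, Nfatc4 ranged from -0.049 to 0.038, Tm2d1 from -0.096 to 0.044, Mpdz from -0.055 to 0.035 and Celf5 from -0.0082 to 0.31. Genes with few counts, such as Lyl1, could not show small differences at this depth.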
